A study of Schmidtea mediterranea with 36 samples.

Results

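Planarians respond to a cut with waves of wound-induced transcription, which begins in differentiated epidermal and subepidermal cells and is followed by later waves that also involve the adult stem cells, called neoblasts. The earliest transcripts appear before new tissue is made. The transcripts described here are the 150 that stood highest at 0.5 hours post amputation (HPA) in *control(RNAi)* tail fragments relative to every later time. They were chosen by their levels in the *control(RNAi)* tail libraries alone and were followed in the *alx-3(RNAi)* libraries, which played no part in the choice.

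RNA of *Schmidtea mediterranea* (asexual clonal strain CIW4) was sequenced in 36 libraries, 3 per group. The groups were *alx-3(RNAi)* and *control(RNAi)* tail fragments sampled at 0.5 HPA and again at 6, 24, 48 and at 72 HPA, and intact whole animals of both treatments. Animals of both treatments received 9 RNAi feedings, with dsRNA of *alx-3*, an aristaless-like homeobox transcription factor gene, or of *GFP*, which planarians lack, and tails were cut posterior to the pharynx. A tail library and a whole-animal library differ in body region as well as in wounding, and these cannot be told apart. How many animals were pooled per RNA-seq library is not given in the sources used here. Neither is a sequencing run, so that at each time any batch of that time cannot be told apart from the time itself.

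The members were transcript IDs that begin with SmedASXL_, from the Smed_ASXL transcriptome, found in all 5 tail tables. Values were log2 of counts per 1000000 of the library total (CPM) plus 0.1. Of 53415 such IDs without the *alx-3* transcript, 17837 had a mean normalized count of at least 50 in *control(RNAi)* tails at 0.5 HPA. In 832 of these, 4.66%, all 3 *control(RNAi)* libraries at 0.5 HPA lay above all 12 later *control(RNAi)* tail libraries. The 150 with the largest lead, which is the mean at 0.5 HPA minus the next highest time mean, were kept of 71232 IDs in all tables together. Their leads in controls ran from 0.47 to 3.60 on the log2 scale, with a median of 0.65 (1.57-fold). These control values chose the members and are no finding. At the edge of the choice the leads were 0.469 and 0.467 at ranks 149 and 150, against 0.465 and 0.464 at ranks 151 and 152. A further 365 IDs met the order condition with a mean count under 50, and 140 IDs had a sufficient count and lead but overlapped with a later library.

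Most members were scarce transcripts. Their mean normalized count in *control(RNAi)* tails at 0.5 HPA ran from 50.2 to 23225, with a median of 126, against a median of 592 over the 17837 IDs of the count minimum. In 94 members it was under 200, and in 25 it was 1000 or more. The median over members of the SD between 3 libraries was 0.16 to 0.27 on the log2 scale, depending on group and time. The rule took only IDs that begin with SmedASXL_, which left out IDs that open with a gene name, so the members are given by ID and no role is assigned to them.

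Facts of the whole series that bear on the values are these. The *alx-3* transcript was lower in every *alx-3(RNAi)* library than in every *control(RNAi)* library at each time. Its normalized count was 233 to 316 against 630.1 to 761 at 0.5 HPA and 158 to 183 against 696 to 775 in intact animals, and 23.6% to 40.8% of the control mean was left over the 6 times. Summed normalized counts per library, in units of 1000000, were 50.9 to 70.9. Transcripts with a ribosomal RNA name took 11.5% to 14.8% of them. One intact library stood apart from its group: leaving out *alx-3(RNAi)* intact replicate 2 raised the transcripts called between the intact groups to 2517 higher and 2905 lower, against 125 higher and 163 lower with it. Of the tissue markers, those of neoblasts (*piwi-1*, *soxP-1*, *soxP-2*, *soxP-3*, *p53* and *bruli*), epidermis (*prog-1*, *prog-2*, *AGAT1*, *AGAT2*, *AGAT3* and *vim-1*), neurons (*COE*), gut (*NXK2.2*) and muscle (*titin*) were found by name. In the tail libraries *COE* had 8.19 to 20.5 CPM, *NXK2.2* 62.4 to 92.8 CPM and *titin* 2.58 to 28.2 CPM. No ID names a marker of the pharynx or the protonephridia.

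In most members 0.5 HPA was also the highest time in *alx-3(RNAi)* tails. In 107 of 150 members (71.3%) all 3 *alx-3(RNAi)* libraries at 0.5 HPA lay above all 12 later *alx-3(RNAi)* tail libraries. Over all 17837 IDs of the count minimum the share was 6.65%. Among the 682 transcripts that met the same conditions in controls but ranked below the members, it was 245 (35.9%). The tables of different times were scaled separately by the authors, so times were compared on each library's own total, as counts of members and with no test across tables. The *alx-3(RNAi)* and *control(RNAi)* libraries of one time share their table and their sampling time. Leaving out each *alx-3(RNAi)* tail library in turn can only keep or raise this count, and gave 107 to 115 members.

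**Figure D1:**
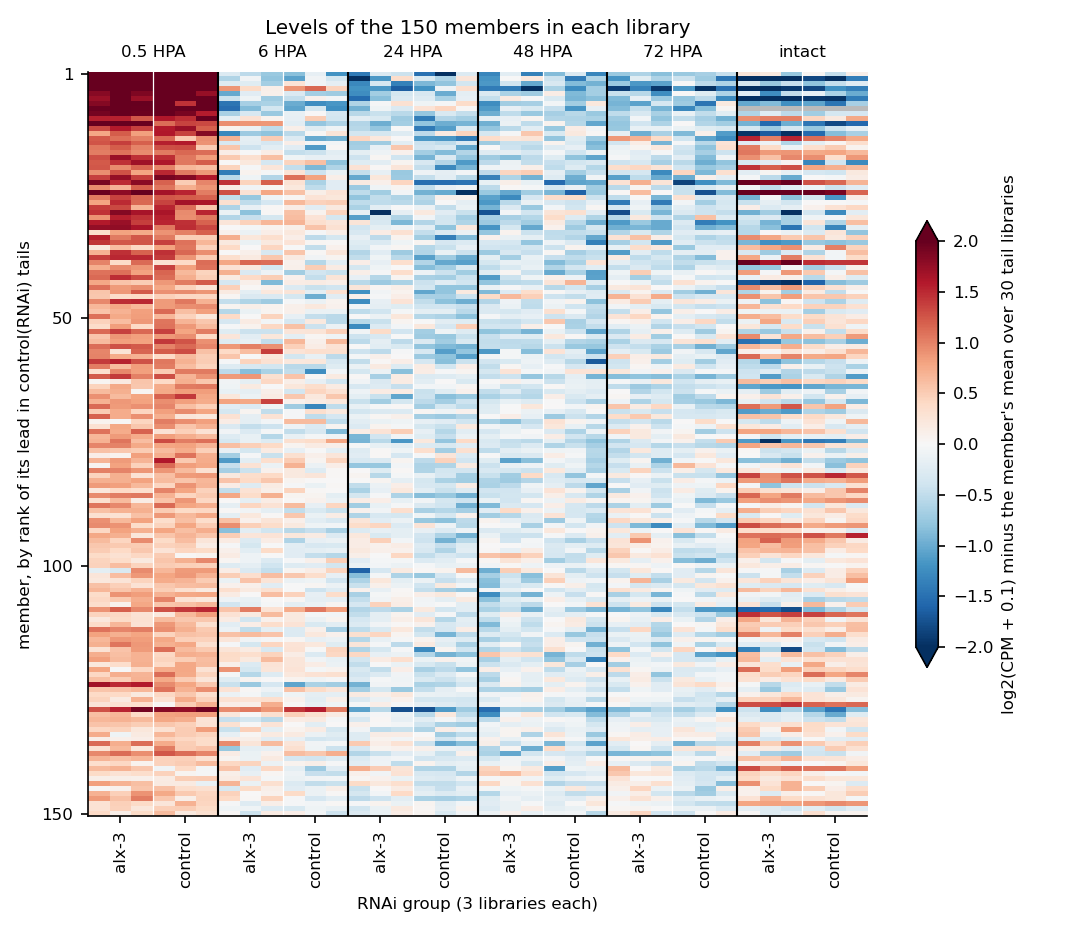
Each row is 1 of the 150 members, ordered by its lead in *control(RNAi)* tails, and each column is 1 library, with the 3 *alx-3(RNAi)* libraries left of the 3 *control(RNAi)* libraries at each time. Colour is log2(CPM + 0.1) minus the member's own mean over the 30 tail libraries, cut off at −2 and 2, and grey marks the member not listed in intact animals. The columns at 0.5 HPA are high in both treatments, while the intact columns are low in some members and high in others.

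Most members had a lead above 0 in *alx-3(RNAi)* tails as well. In *alx-3(RNAi)* tails the lead of 0.5 HPA over the next highest time ran from −0.19 to 3.90, with a median of 0.59 (1.51-fold), against a median of 0.65 in *control(RNAi)* tails. The lead was above 0 in 141 members, at least 1 in 36 and at least 2 in 8. Over all IDs of the count minimum the median *alx-3(RNAi)* lead was −0.09, and 31.9% were above 0. The *alx-3(RNAi)* lead was larger than the control lead in 56 members and smaller in 94, with a median difference of −0.11. Since the members were kept for a large control lead, a smaller lead in other libraries can come from the choice, and nothing is read from this difference.

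The lead in one treatment went with the lead in the other. Over the 150 members the leads of *alx-3(RNAi)* and *control(RNAi)* tails had a Pearson r of 0.836 and a Spearman rho of 0.653. The points share their sampling times, the values of one time share a table, and the control lead chose the members, so this is a description. Of the members ranked 1 to 50 by control lead, 47 had all *alx-3(RNAi)* libraries at 0.5 HPA above all later ones, with a median lead of 1.13. The number was 34 of those ranked 51 to 100 (median 0.52) and 26 of those ranked 101 to 150 (median 0.35). The order held in 68 of 94 members with a mean count under 200 (72.3%) and in 39 of 56 with 200 or more (69.6%). Among all IDs of the count minimum the shares were 8.97% and 5.66%.

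**Figure D2:**
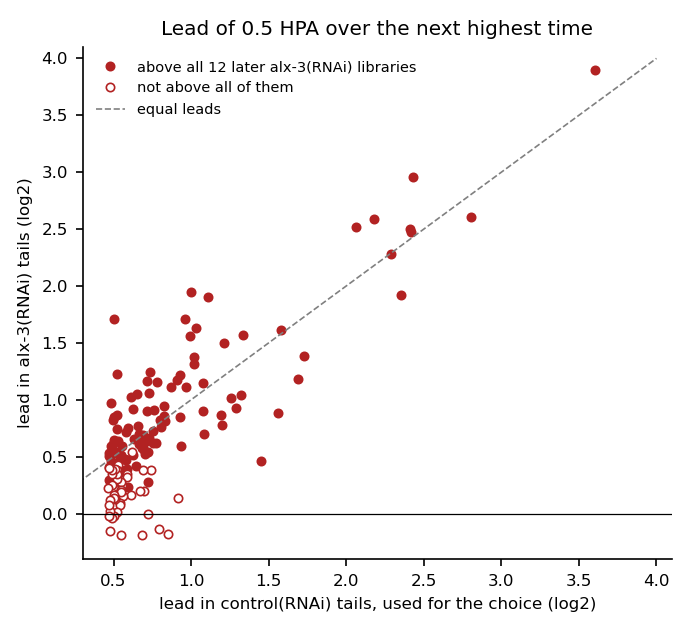
Each point is 1 of the 150 members, with its lead in *alx-3(RNAi)* tails on the vertical axis against its lead in *control(RNAi)* tails, both on the log2 scale. Filled points are the 107 members whose 3 *alx-3(RNAi)* libraries at 0.5 HPA lay above all 12 later ones, and the dashed line marks equal leads. The members with a control lead of at least 2 all lie at 1.92 or above in *alx-3(RNAi)*, and 9 members lie at or below 0.

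Most of the median difference from 0.5 HPA was present by 6 HPA, and levels were lower still at 24 HPA. The median member in *alx-3(RNAi)* tails stood at 63.0% of its 0.5 HPA level at 6 HPA, 52.9% at 24 HPA, 49.3% at 48 HPA and 52.7% at 72 HPA. In *control(RNAi)* tails, whose values chose the members, the medians were 61.0%, 45.2%, 49.4% and 50.8%. Over all IDs of the count minimum the median change in *alx-3(RNAi)* tails was between −0.03 and −0.004 on the log2 scale at each later time. The median *alx-3(RNAi)* library value over members was 1.34 ± 0.0593 at 0.5 HPA, 0.435 ± 0.0518 at 6 HPA, 0.178 ± 0.229 at 24 HPA, 0.132 ± 0.104 at 48 HPA and 0.259 ± 0.187 at 72 HPA, as log2(CPM + 0.1) (mean ± SD, n = 3). All members together took 0.271% ± 0.00445 of the library at 0.5 HPA and 0.150% ± 0.00871 at 72 HPA in *alx-3(RNAi)*, against 0.250% ± 0.00875 and 0.125% ± 0.00437 in *control(RNAi)* (SD, n = 3).

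**Figure D3:**
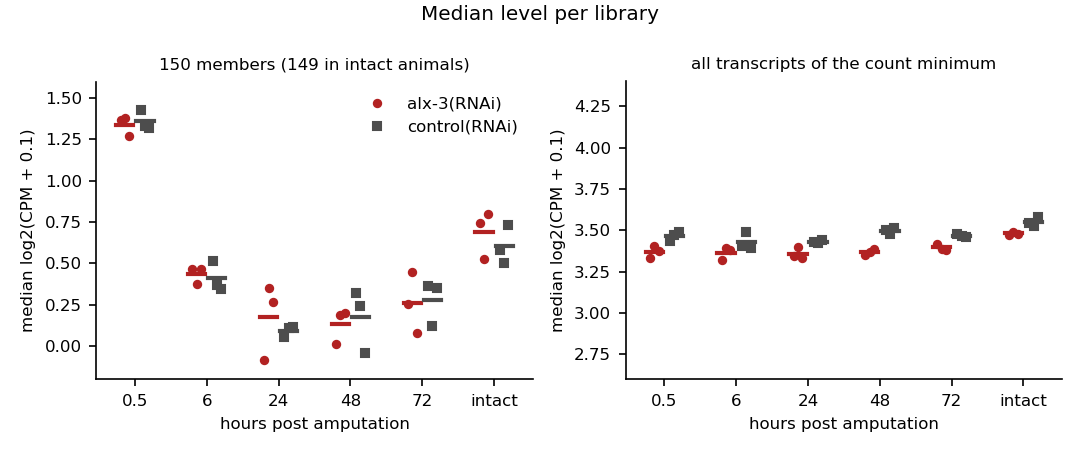
Points are libraries and bars are means of 3, with *alx-3(RNAi)* left of *control(RNAi)* at each time. The vertical axes give the median log2(CPM + 0.1) of the members (left panel) and of all transcripts of the count minimum (right panel) over spans of equal length. In *alx-3(RNAi)* tails the members' median lay between 1.27 and 1.38 at 0.5 HPA and at 0.466 or less at 6 HPA, while the median of all transcripts moved little.

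Members differed in how soon their levels were lower. In *alx-3(RNAi)* tails 46 members were at least 2-fold lower at 6 HPA than at 0.5 HPA, 10 of them at least 4-fold. By their lowest time 91 members were at least 2-fold lower, and at 72 HPA 68 still were. Another 15 were less than 0.5 lower on the log2 scale at 6 HPA and at least 2-fold lower later. The lowest time in *alx-3(RNAi)* was 6 HPA in 21 members, 24 HPA in 29, 48 HPA in 68 and 72 HPA in 32, against 14, 66, 35 and 35 members in *control(RNAi)*. Only 1 member returned by 72 HPA to at least 2-fold above its lowest time in *alx-3(RNAi)* tails.

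Transcripts that were already much lower at 6 HPA in controls were so in *alx-3(RNAi)* tails too. In 34 members the *control(RNAi)* mean was at least 2-fold lower at 6 HPA than at 0.5 HPA, and in 34 of these 34 the *alx-3(RNAi)* libraries at 0.5 HPA lay above all 12 later ones. Of the other 116 members this held in 73 (62.9%). The median change from 0.5 to 6 HPA in *alx-3(RNAi)* tails was −1.42 on the log2 scale in this group and −0.53 in the others, and from 0.5 to 72 HPA it was −1.73 and −0.79. Both groups were of similar abundance, with median counts of 123 and 132. The split was made on control values already used for the choice and is given without a test.

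Comparison with each later time gave the same picture. All 3 *alx-3(RNAi)* libraries at 0.5 HPA lay above the 3 at 6 HPA in 115 members, against 19.0% of all IDs of the count minimum. The count was 133 at 24 HPA (22.0% of all), 141 at 48 HPA (25.7%) and 131 at 72 HPA (20.1%). The 43 members without a full separation overlapped mostly at 6 HPA (35 of 43, 18 of them at 6 HPA alone), against 17 at 24 HPA, 9 at 48 HPA and 19 at 72 HPA. In 34 of these 43 the highest *alx-3(RNAi)* mean was still that at 0.5 HPA. The other 9 had a lead between −0.19 and −0.006, with the highest mean at 6 HPA in 5, at 48 HPA in 2 and at 72 HPA in 2.

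**Figure D4:**
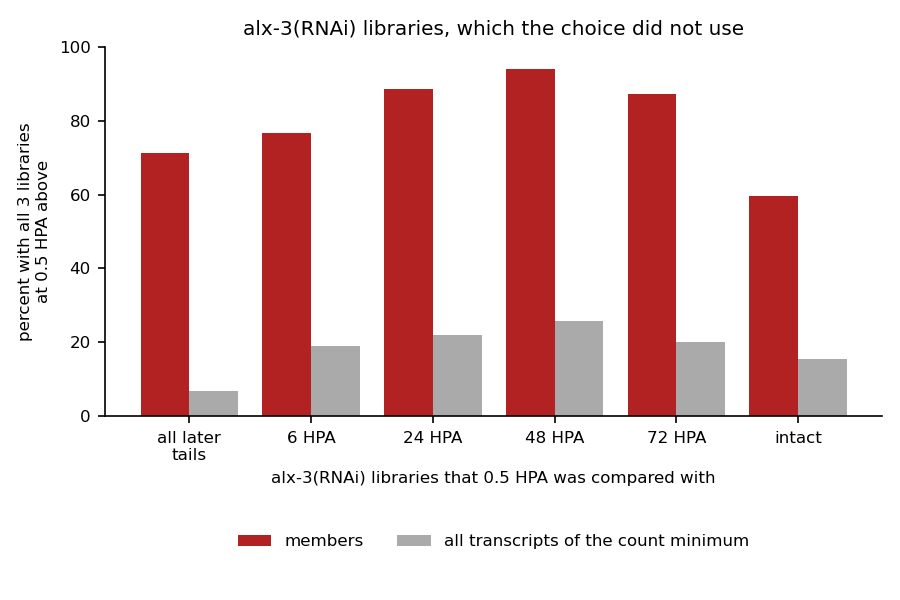
Bars give the percent of members and of all transcripts of the count minimum in which the 3 *alx-3(RNAi)* libraries at 0.5 HPA lay above the *alx-3(RNAi)* libraries named on the horizontal axis. The share of members was 71.3% against all later tails and 59.7% against intact animals, where the share of all transcripts was 6.65% and 15.4%.

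The transcript with the largest lead in both treatments was SmedASXL_069392. It had 4.82, 5.57 and 4.32 CPM in *alx-3(RNAi)* tails at 0.5 HPA, against 4.29, 3.91 and 2.97 CPM in *control(RNAi)* tails. At every later tail time and in intact animals no library of either treatment exceeded 0.474 CPM, so the 0.5 HPA libraries stood alone. Its lead was 3.90 in *alx-3(RNAi)* and 3.60 in *control(RNAi)* on the log2(CPM + 0.1) scale.

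SmedASXL_001353, at rank 2, had 19.8, 21.7 and 17.1 CPM in *alx-3(RNAi)* tails at 0.5 HPA, against 22.3, 25.6 and 24.0 CPM in *control(RNAi)* tails. At 6 HPA the values were 2.55, 3.71 and 2.23 CPM in *alx-3(RNAi)* and 1.82, 3.73 and 3.04 CPM in *control(RNAi)*. In intact animals they were 0.540, 0.526 and 0.502 CPM in *alx-3(RNAi)* and 1.03, 0.699 and 1.44 CPM in *control(RNAi)*. The 2 treatments overlapped at 6 HPA and not in intact animals, where limma gave a log2 fold change of −0.85 with an adjusted p of 0.140 (0.0253 without *alx-3(RNAi)* replicate 2). Its later *alx-3(RNAi)* tails were all above the intact *alx-3(RNAi)* animals, the lowest being at 0.802 CPM at 24 HPA, while in *control(RNAi)* later tails and intact animals overlapped. SmedASXL_070669, at rank 3, had the next largest lead in *alx-3(RNAi)*, 2.96. It had 11.1, 16.6 and 11.9 CPM at 0.5 HPA in *alx-3(RNAi)* and 14.6, 11.1 and 10.2 CPM in *control(RNAi)*, and 1.75, 1.77 and 1.28 CPM at 6 HPA in *alx-3(RNAi)* and 2.56, 2.00 and 1.84 CPM in *control(RNAi)*. For this transcript the intact animals, at 1.62, 1.21 and 1.50 CPM in *alx-3(RNAi)* and 1.16, 1.48 and 1.79 CPM in *control(RNAi)*, were about as low as the late tails.

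In all, 9 members had a control lead of at least 2. In *alx-3(RNAi)* tails their leads ran from 1.92 to 3.90, and in each of the 9 the libraries at 0.5 HPA lay above all later ones. Their mean counts ran from 51.7 to 9101, so the large leads were not limited to scarce transcripts. The 8 of them listed in the intact table were all higher at 0.5 HPA than in intact *alx-3(RNAi)* animals, by 2.48 to 5.08 on the log2 scale. The highest of these values belonged to SmedASXL_074125, at 4.89, 4.84 and 4.54 CPM in *alx-3(RNAi)* tails at 0.5 HPA and 0.0529, 0.0165 and 0.0674 CPM in intact *alx-3(RNAi)* animals. Its later *alx-3(RNAi)* tails had 1.07, 0.725 and 0.587 CPM at 6 HPA and 0.0722, 0.152 and 0.0670 CPM at 72 HPA in *alx-3(RNAi)*.

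Other members did not hold their order in *alx-3(RNAi)* tails. SmedASXL_004939 had the smallest lead in *alx-3(RNAi)*, −0.19, against 0.68 in *control(RNAi)*. It had 12.6, 14.2 and 13.6 CPM at 0.5 HPA and 13.7, 13.3 and 20.03 CPM at 6 HPA in *alx-3(RNAi)*, and 14.9, 13.8 and 13.0 CPM at 0.5 HPA and 8.27, 8.65 and 8.95 CPM at 6 HPA in *control(RNAi)*. The 2 treatments therefore overlapped at 0.5 HPA and not at 6 HPA. By 24 HPA it was at 5.69, 4.77 and 6.03 CPM in *alx-3(RNAi)* and 5.38, 4.80 and 5.77 CPM in *control(RNAi)*, again overlapping.

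SmedASXL_016159, with a lead of −0.19 in *alx-3(RNAi)* and 0.55 in *control(RNAi)*, was higher at 48 HPA than at 0.5 HPA in *alx-3(RNAi)* tails, without overlap. It had 17.6, 16.7 and 18.1 CPM at 0.5 HPA, 15.1, 12.6 and 13.4 CPM at 6 HPA, 20.1, 21.0 and 18.7 CPM at 48 HPA and 19.5, 15.4 and 16.4 CPM at 72 HPA in *alx-3(RNAi)*. In *control(RNAi)* it had 19.1, 13.6 and 14.1 CPM at 0.5 HPA and between 9.04 and 11.5 CPM at all later times. Intact animals had 18.9, 16.2 and 18.1 CPM in *alx-3(RNAi)*, within the range of their tails, and 15.7, 13.2 and 13.9 CPM in *control(RNAi)*. From 6 HPA on, the 2 treatments did not overlap at any time.

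**Figure D5:**
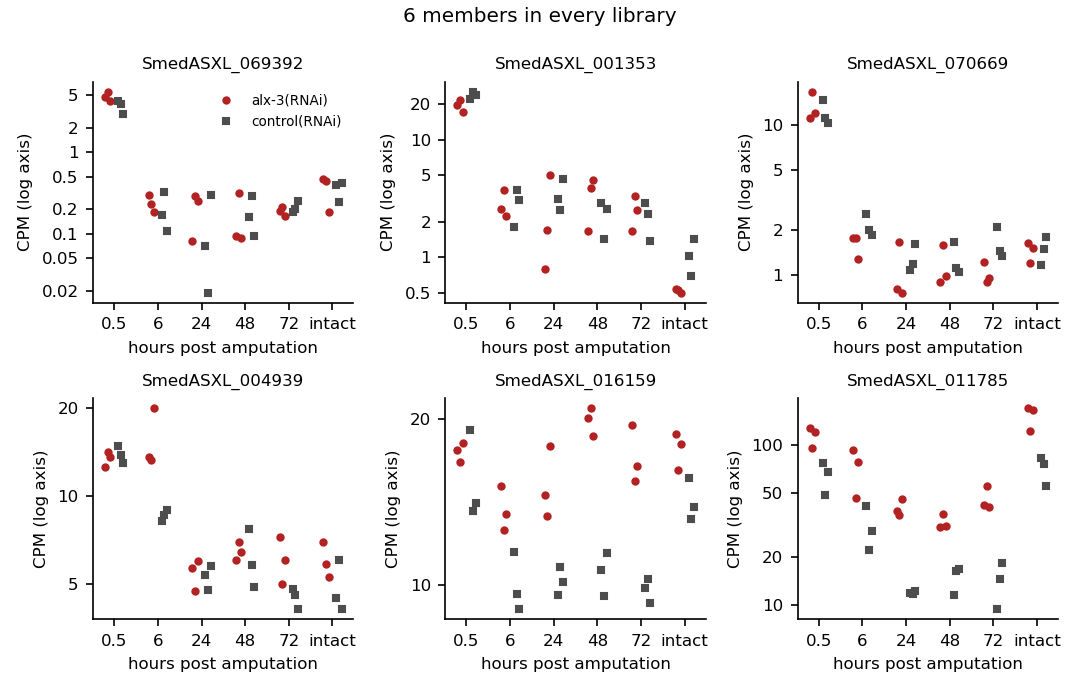
Points are libraries of 6 members, with *alx-3(RNAi)* left of *control(RNAi)* at each time, in CPM on a log axis. In the upper row (the members with the largest leads named here) the libraries at 0.5 HPA of both treatments lie above all others. In the lower row SmedASXL_004939 is still high at 6 HPA in *alx-3(RNAi)*, at 13.3 to 20.03 CPM, SmedASXL_016159 stays at 12.6 CPM or more in *alx-3(RNAi)*, and SmedASXL_011785 is as high in intact animals as at 0.5 HPA or higher.

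Most members were higher in tails at 0.5 HPA than in intact whole animals, but some were lower. Of the 149 members listed in the intact table, 89 (59.7%) had all 3 *alx-3(RNAi)* tails at 0.5 HPA above the 3 intact *alx-3(RNAi)* libraries, against 15.4% of all IDs of the count minimum. In 15 (10.1%) they lay below, against 27.9% of all IDs, and in 45 the libraries overlapped. The median of 0.5 HPA over intact was 0.54 on the log2 scale (1.45-fold), with a range from −1.11 to 5.08, and 48 members were at least 1. Over all IDs of the count minimum the median was −0.04. In *control(RNAi)*, whose tails chose the members, the median over members was 0.64.

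The members already much lower at 6 HPA in controls had higher ratios of 0.5 HPA to intact animals. Of the 33 listed members whose control level was at least 2-fold lower at 6 HPA, 25 (75.8%) were higher at 0.5 HPA than in intact *alx-3(RNAi)* animals and 1 was lower, with a median of 1.47 on the log2 scale. Of the other 116, 64 (55.2%) were higher and 14 lower, with a median of 0.43. Among the 9 members with an *alx-3(RNAi)* lead of 0 or less, 3 were above intact animals and 4 below. Fewer cells of a type and less RNA per cell cannot be told apart in these bulk libraries, here and below.

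SmedASXL_009894, with a lead of −0.18 in *alx-3(RNAi)*, was the member lowest at 0.5 HPA relative to intact animals. It had 34.9, 22.8 and 38.3 CPM in *alx-3(RNAi)* tails at 0.5 HPA and 78.9, 54.9 and 71.9 CPM in intact *alx-3(RNAi)* animals. At 6 HPA it had 29.9, 38.7 and 38.0 CPM in *alx-3(RNAi)* tails, against 18.5, 11.7 and 15.1 CPM in *control(RNAi)* tails, without overlap. By 72 HPA the treatments were at 15.3, 13.2 and 12.8 CPM in *alx-3(RNAi)* and 12.4, 12.8 and 13.2 CPM in *control(RNAi)*. In CPM these overlapped.

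Within a time point, the treatments were compared with limma on log2(normalized count + 1), with calls at a two-sided p under 0.05 after Benjamini-Hochberg adjustment over all transcripts tested. The *control(RNAi)* tails chose the members, which favours a lower ratio of *alx-3(RNAi)* to control at 0.5 HPA and a higher one later, so the tail counts are given beside the background and nothing is read from them. At 0.5 HPA 16 of 150 tested members were called higher and 0 lower (all transcripts: 1.24% higher, 0.794% lower). With an unadjusted p under 0.05 there were 51 in either direction, against 16.2% of all transcripts. At 6 HPA 24 of 147 were higher and 0 lower (1.72%, 0.621%), with 60 at an unadjusted p under 0.05 (17.0% of all). At 24 HPA 35 of 146 were higher and 1 lower (4.28%, 3.01%). The lower one was SmedASXL_009795, named after its values were seen. At 48 HPA 14 of 145 were higher and 0 lower (2.36%, 1.11%), with 42 at an unadjusted p under 0.05 (16.9% of all). At 72 HPA 46 of 144 were higher and 0 lower (10.5%, 2.62%), with 57 at an unadjusted p under 0.05 (27.3% of all). Scaling mattered. When library totals were made equal, the median of all transcripts moved to −0.12 at 6 HPA, −0.15 at 48 HPA and −0.20 at 72 HPA on the log2 scale, and the share of all calls that were higher was 20.4% in place of 60.9% at 0.5 HPA, 31.0% in place of 73.5% at 6 HPA, 31.5% in place of 58.7% at 24 HPA, 24.3% in place of 68.1% at 48 HPA and 21.1% in place of 80.0% at 72 HPA. The call counts of members were then 9 higher with 3 lower (0.5 HPA), 11 with 1 (6 HPA), 31 with 3 (24 HPA), 11 with 2 (48 HPA) and 29 with 2 (72 HPA). The higher calls also rested on single libraries: at 0.5 HPA 3 were left without *alx-3(RNAi)* replicate 1 or 3 and 7 without *control(RNAi)* replicate 3, at 6 HPA 11, 14 and 10 without *alx-3(RNAi)* replicate 1, *alx-3(RNAi)* replicate 3 and *control(RNAi)* replicate 3, and at 48 HPA 6 without *alx-3(RNAi)* replicate 1 or 3.

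The calls in tails were also counted per member. Of 150, 55 were called higher at 1 or more of the 5 tail times, 1 was called lower, and 94 were called at none. Called higher at all 5 tail times were 6 members, at 4 times 7, at 3 times 11, at 2 times 13 and at 1 time 18. The same counts over all transcripts were not computed. As the choice also favours higher calls at later times, nothing is read from these counts.

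Marker genes of several cell types also differed between *alx-3(RNAi)* and *control(RNAi)* tails, and the genes of a list did not all move together. The 6 parenchymal and pigment cell markers summed to 5384 to 5980 against 4447 to 4816 CPM at 0.5 HPA and 4713 to 4877 against 4278 to 4372 CPM at 72 HPA. At 0.5 HPA 3 of the 6 were called higher by limma (*ALAS*, *PBGD-1* and *cathepsin*), *KMO-1* and *FoxF1* were not called, and *ets-1*, with a log2 fold change of −0.21, was called lower only with equal library totals or quantile normalization. At 72 HPA all 6 were called higher, against 3 with equal library totals and 4 with quantile normalization. The 6 epidermal markers summed to 1402 to 1585 against 1291 to 1456 CPM at 0.5 HPA, with overlap, and to 1423 to 1445 against 1279 to 1321 CPM at 72 HPA, without. Of these, *prog-1* and *prog-2* were called higher at 0.5 HPA, and all 6 at 72 HPA, against 1 with equal library totals and 2 with quantile normalization.

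The 6 neoblast markers summed to 790 to 822 against 745 to 771 CPM at 0.5 HPA, where limma called none after adjustment and 3 had an unadjusted p under 0.05. At 72 HPA they summed to 1209 to 1276 against 1438 to 1495 CPM, with *soxP-3* and *p53* called higher and *soxP-1* called lower, and with equal library totals or quantile normalization *piwi-1* and *soxP-2* were called lower as well. The muscle marker *titin* had 5.01 to 6.69 CPM against 11.1 to 16.1 CPM at 0.5 HPA. It was called lower at 0.5, 6, 24 and 72 HPA and not at 48 HPA. The neural marker *COE* had 8.76 to 10.9 CPM against 12.2 to 13.2 CPM at 0.5 HPA. It was called lower there with equal library totals, but not with the deposited scaling or quantile normalization. At 24 HPA *COE* was called lower with each of these scalings, and at 72 HPA with equal library totals or quantile normalization only. These alternative scalings of the marker lists were chosen after seeing the data. The part of these cell types in the members' values was not tested.

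SmedASXL_011785 had one of the highest ratios of *alx-3(RNAi)* to control among the members at 4 of the 5 tail times and in intact animals. It had 128, 95.5 and 120.0 CPM in *alx-3(RNAi)* tails at 0.5 HPA, against 77.5, 48.4 and 67.5 CPM in *control(RNAi)* tails. At 24 HPA it had 38.6, 36.7 and 46.0 CPM in *alx-3(RNAi)* and 11.9, 11.8 and 12.2 CPM in *control(RNAi)*. The treatments did not overlap at any of the 6 times, and both were lower at every later tail time than at 0.5 HPA by their means. Its log2 fold changes were 0.94 at 0.5 HPA, 1.37 at 6 HPA, 1.83 at 24 HPA, 1.32 at 48 HPA and 1.95 at 72 HPA. SmedASXL_079657 was higher in every *alx-3(RNAi)* library at both times given next: it had 2.2, 1.89 and 1.61 CPM in *alx-3(RNAi)* against 0.672, 0.665 and 0.550 CPM at 24 HPA, and 3.01, 2.67 and 2.12 CPM against 1.19, 0.722 and 0.623 CPM at 72 HPA.

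Other members stood higher in *alx-3(RNAi)* tails at some times and overlapped at others. SmedASXL_069205 had 4.19, 3.67 and 3.92 CPM in *alx-3(RNAi)* tails at 0.5 HPA, against 2.46, 2.199 and 1.85 CPM in *control(RNAi)* tails, and at 6 HPA the treatments overlapped. SmedASXL_006173 had 17.4, 16.5 and 15.4 CPM in *alx-3(RNAi)* at 0.5 HPA, against 8.45, 9.95 and 9.71 CPM in *control(RNAi)*, and 7.35, 7.13 and 7.02 CPM against 3.30, 2.19 and 2.45 CPM at 6 HPA. At 24 HPA both were near 2 CPM, with 2.51, 1.90 and 2.34 CPM in *alx-3(RNAi)* and 2.18, 1.90 and 1.97 CPM in *control(RNAi)*. This transcript thus started higher in *alx-3(RNAi)* tails and had declined to overlapping levels by 24 HPA. SmedASXL_009128 had 2.81, 2.26 and 2.34 CPM in *alx-3(RNAi)* tails at 48 HPA, against 0.939, 1.29 and 1.39 CPM in *control(RNAi)* tails. It was free of overlap at 24 and 72 HPA too, and overlapped at 0.5 and 6 HPA and in intact animals.

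The members with the lowest ratios of *alx-3(RNAi)* to control were mostly scarce, and none of those named next was called in tails. With equal library totals SmedASXL_016880 at 0.5 HPA and SmedASXL_074583 at 72 HPA passed the threshold. SmedASXL_016880 had 0.766, 0.724 and 1.01 CPM in *alx-3(RNAi)* tails at 0.5 HPA, against 1.58, 1.46 and 1.35 CPM in *control(RNAi)* tails, and 0.492, 0.530 and 0.468 CPM against 0.728, 0.966 and 0.730 CPM at 72 HPA. SmedASXL_065978 had 0.799, 1.12 and 0.826 CPM against 1.49, 1.24 and 1.77 CPM at 0.5 HPA, and 0.115, 0.217 and 0.201 CPM against 0.261, 0.435 and 0.525 CPM at 6 HPA. SmedASXL_029279 had 0.131, 0.217 and 0.123 CPM against 0.616, 0.482 and 0.263 CPM at 6 HPA. Each of these comparisons was free of overlap between the treatments. Members without overlap between the treatments numbered 43 higher and 8 lower at 0.5 HPA, where 13.2% and 8.53% of all transcripts were. The numbers were 46 and 10 for 6 HPA (14.5% and 8.67%), 51 and 5 for 24 HPA (13.5% and 12.6%), 36 and 10 for 48 HPA (13.0% and 8.98%), and 57 and 2 for 72 HPA (19.3% and 11.3%). At later times SmedASXL_072269 and SmedASXL_004580 (24 HPA), SmedASXL_074125 and SmedASXL_045878 (48 HPA), and SmedASXL_074583 (72 HPA) had the lowest ratios without overlap, with log2 fold changes of −0.98, −0.46, −1.21, −0.88 and −0.45 in that order.

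In intact animals, which the choice did not use, few members were called between the treatments. Of 142 tested, 3 were called higher (2.11%) and 2 lower (1.41%) in *alx-3(RNAi)*, against 0.384% and 0.501% of all transcripts. The latter, here and below, did not have to meet the count minimum of the members. The sets can therefore differ in abundance, and nothing is read from the difference in shares. SmedASXL_011785 rose in *alx-3(RNAi)*, at 10346, 7360 and 10059 normalized counts against 4841, 4510 and 2922 in *control(RNAi)*, a limma log2 fold change of 1.20 with an SE of 0.180 and an adjusted p of 0.0120. SmedASXL_012058 fell, at 1346, 1384 and 1186 normalized counts in *alx-3(RNAi)* against 2094, 2608 and 2783 in *control(RNAi)*, a limma log2 fold change of −0.93 with an SE of 0.110 and an adjusted p of 0.00291, which kept its call without any single library. The other 3 calls, named after their values were seen, were SmedASXL_019034 (0.68), SmedASXL_016161 (0.48) and SmedASXL_009795 (−0.46), with adjusted p of 0.0111, 0.0475 and 0.0411. Without *alx-3(RNAi)* replicate 2, the library that stood apart, 39 members were called higher and 8 lower, against 7.98% and 9.21% of all transcripts, and leaving out another single library gave 0 to 2 higher and 1 lower. The call of SmedASXL_011785 ended, with adjusted p of 0.0712, 0.0545 and 0.0509, without *alx-3(RNAi)* replicate 1, *alx-3(RNAi)* replicate 3 or *control(RNAi)* replicate 3.

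The intact comparison also gave values of members that missed the threshold. SmedASXL_065316 had 24.8, 26.8 and 33.7 normalized counts in intact *alx-3(RNAi)* animals and 9.19, 22.8 and 8.65 in *control(RNAi)*, without overlap, and a log2 fold change of 1.14 (adjusted p = 0.182, limma). SmedASXL_012058, by contrast, was far higher in tails than in intact animals of the same treatment: it had 125, 153 and 130 CPM in *alx-3(RNAi)* tails at 0.5 HPA, 44.4, 46.4 and 43.0 CPM at 24 HPA, and 22.1, 23.0 and 19.6 CPM in intact *alx-3(RNAi)* animals. Its *alx-3(RNAi)* tails at all 5 times thus lay above the intact animals. In intact animals 38 members were higher and 8 lower without overlap, against 13.0% and 9.31% of all transcripts.

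Transcripts whose IDs hold a gene name give a comparison for the timing. Of 265 IDs with a gene name in all tail tables, 231 had the count minimum and 6 met the order condition in *control(RNAi)* tails. IDs that open with a gene name were outside the rule for the 150. Their control leads are given in parentheses. The 6 were *vim-1* (0.39), an epidermal gene, *pepck* (0.38), which encodes a gluconeogenic enzyme, *MyD88-1* (0.25), an adaptor of innate immune signalling, *ALAS* (0.20), the first enzyme of heme synthesis, the RNA-binding protein gene *elav-2* (0.15) and the kinase gene *nemo* (0.06). Of the 6, *pepck* alone had all *alx-3(RNAi)* libraries at 0.5 HPA above all later ones, at 170.0, 146 and 172 CPM. Its highest later *alx-3(RNAi)* tail library was at 137 CPM, at 6 HPA. *vim-1* overlapped between 0.5 and 6 HPA in *alx-3(RNAi)* tails, at 439, 364 and 481 CPM at 0.5 HPA and 392, 324 and 388 CPM at 6 HPA, and at 234, 249 and 296 CPM at 24 HPA.

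Several known wound response genes were higher at 6 HPA than at 0.5 HPA. *runx-1*, an early wound-induced transcription factor gene, had a mean of 0.723 CPM in *alx-3(RNAi)* and 1.33 CPM in *control(RNAi)* tails at 0.5 HPA, and of 7.35 CPM in *alx-3(RNAi)* and 23.5 CPM in *control(RNAi)* tails at 6 HPA. *wnt1*, a Wnt ligand induced at wounds, and *notum*, a secreted Wnt inhibitor, were also higher at 6 HPA than at 0.5 HPA. In *alx-3(RNAi)* tails the means were 2.11 against 0.721 CPM for *wnt1* and 3.23 against 1.25 CPM for *notum*. In *control(RNAi)* tails they were 4.23 against 1.05 CPM for *wnt1* and 4.84 against 1.66 CPM for *notum*. *delta-1*, which encodes a Notch ligand, had 5.66 CPM at 6 HPA against 0.737 CPM at 0.5 HPA in *alx-3(RNAi)* tails. In *control(RNAi)* tails it had 2.35 against 0.612 CPM. *activin*, which encodes a TGF-beta family ligand, had its highest tail mean at 0.5 HPA in both treatments, at 60.8 CPM against 46.3 to 53.3 CPM at later times in *alx-3(RNAi)* and 45.8 CPM against 29.0 to 36.9 CPM in *control(RNAi)*, with libraries that overlapped in both. The 7 wound response genes found by name (*runx-1*, *runx-2*, *delta-1*, *follistatin*, *activin*, *notum* and *wnt1*) have IDs outside the rule. Summed, they had 105 to 112 CPM at 0.5 HPA and 115 to 131 CPM at 6 HPA in *alx-3(RNAi)*, against 103 to 108 CPM and 139 to 151 CPM in *control(RNAi)*. Most of the sum came from *activin*, *runx-2* and *follistatin*, with means of 60.8, 27.2 and 16.4 CPM in *alx-3(RNAi)* at 0.5 HPA. It therefore says little about the scarcer genes.

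Of these 7 genes, limma called 1 higher with 0 lower (0.5 HPA), 1 with 1 (6 HPA), 3 with 2 (24 HPA), 3 with 0 (48 HPA), 3 with 2 (72 HPA) and 0 with 1 (intact animals). *activin*, a TGF-β family ligand gene, was the one higher at 0.5 HPA (0.51, adjusted p = 0.0174, limma), and the call ended without *alx-3(RNAi)* replicate 1 or 3 and with quantile normalization. *runx-1* was the one lower at 6 HPA (−1.56, adjusted p = 7.85e-05). *notum* was called lower at 24 HPA (−0.98, adjusted p = 0.00132, limma) and at 72 HPA (−1.36, adjusted p = 0.000846, limma). *delta-1* was the one higher at 6 HPA (1.38, adjusted p = 0.0291), a call that ended after rescaling to equal totals, after quantile normalization, and without *alx-3(RNAi)* replicate 1 or any single *control(RNAi)* replicate. *runx-2* was called lower in intact animals (−0.58, adjusted p = 0.0230) and higher in tails at 24 HPA (0.65, adjusted p = 0.00684). The call in intact animals ended without *alx-3(RNAi)* replicate 1 or 3 or any single *control(RNAi)* replicate. Without *alx-3(RNAi)* replicate 2, *activin* and *follistatin* were called higher in intact animals. Without *alx-3(RNAi)* replicate 1, 1 gene in place of 3 was called higher at 48 HPA, and the call of *wnt1* at 24 HPA ended without *alx-3(RNAi)* replicate 3 or any single *control(RNAi)* replicate.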

How the data were processed

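RNA was taken from *alx-3(RNAi)* and *control(RNAi)* tails and intact animals. The authors trimmed 50-base paired reads with Trimmomatic 0.39, quantified them with Salmon 1.4.0 against the Smed_ASXL transcriptome, and scaled them with DESeq2 1.30.1. The deposited signal values are these scaled counts, one table of 6 libraries per time. A header calls them RPKM, but their row means equal the mean counts of the authors' results tables, so they were not divided by length. The authors' comparison tables (fold changes and p-values) were not used.

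Members and lists were chosen with earlier results of these data known. Named members were the first 2 by rank, the 2 largest and 2 smallest *alx-3(RNAi)* leads, and, per time, the 2 highest and 2 lowest ratios without overlap between treatments. Transcripts with at least 10 normalized counts in at least 3 of 6 libraries were tested with limma 3.58.1 (R 4.3.3), each time by itself, after a check on simulated data. Of the members, 142 (intact animals) to 150 (0.5 HPA) passed. Replicates were described as biological. Counting error cannot be computed from scaled values. Python 3.11.15 was used for the rest. Alternatives were other scalings, pseudocounts and filters, a fold threshold, a replicate block and leaving out each library.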

Additional observations from a re-analysis of the deposited data

How the results depend on the processing

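No called result changed direction under the alternatives run. Of the main counts and medians recomputed, 270 were classed as the same and 93 as moved. Results classed as the same could still differ in size, as did the 87 members given below. With quantile normalization 11 members in place of 16 were called higher at 0.5 HPA. Without *control(RNAi)* replicate 3, 21 in place of 14 were called higher at 48 HPA. Of the single values recomputed, 921 kept their call or count, 22 newly passed the threshold, 36 no longer did, and 23 counts of called marker genes moved. A minimum mean count of 200 left 56 of the members, and a pseudocount of 1 CPM gave a median *alx-3(RNAi)* lead of 0.39. The 107 members with 0.5 HPA above all later *alx-3(RNAi)* libraries became 87 with the deposited counts, 92 with quantile normalization and 125 with 6 HPA left out, the last chosen after seeing the data. Leaving out a library gave 107 to 115 members, a median lead of 0.57 to 0.62 and 90 to 96 members above intact animals. These counts of members, like the 125 without 6 HPA, can only stay equal or rise when libraries are left out. They therefore do not measure stability.

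Of the members called higher, a minimum size of 1 on the log2 scale left 0 (0.5 HPA), 5 (6 HPA), 8 (24 HPA), 5 (48 HPA), 11 (72 HPA) and 1 (intact animals), and of those called lower 0 at 24 HPA and in intact animals. Equal library totals gave 9 higher with 3 lower (0.5 HPA), 11 with 1 (6 HPA), 29 with 2 (72 HPA), and lower calls of 3 (24 HPA) and 2 (48 HPA). Quantile normalization gave 2 lower at 0.5 and at 24 HPA, and 7 higher and 1 lower in intact animals. In intact animals a pseudocount of 5 gave 5 higher and no filter gave 8. Leaving out a library gave 3 to 24 higher with 0 to 4 lower (0.5 HPA), 10 to 32 with 0 (6 HPA), 24 to 31 with 0 to 2 (24 HPA), 6 to 21 with 0 (48 HPA), 31 to 46 with 0 to 2 (72 HPA) and 0 to 39 with 1 to 8 (intact animals).

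For the wound response genes the fold threshold left 0 higher at 0.5 HPA, 0 higher and 0 lower at 24 HPA, 0 higher at 48 HPA, 1 lower at 72 HPA and 0 lower in intact animals. Quantile normalization gave 0 higher and 1 lower at 0.5 HPA and 0 higher at 6 HPA. Equal totals gave 1 lower at 0.5 HPA, 0 higher and 2 lower at 6 HPA, and 1 lower at 48 HPA, and no filter gave 2 higher and 2 lower at 6 HPA. Leaving out a library gave 0 to 1 higher with 0 to 1 lower (0.5 HPA), 0 to 2 with 1 to 2 (6 HPA), 2 to 3 with 1 to 3 (24 HPA), 1 to 3 with 0 to 1 (48 HPA), 2 to 3 with 2 (72 HPA) and 0 to 2 with 0 to 1 (intact animals).

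Replicate numbers did not pair the libraries: same-numbered libraries did not all deviate together at any time, with correlations of −0.40 to 0.26, and at most 1 of 3 pairs correlated best with its own number. With the replicate block, members called were 19 higher and 1 lower at 0.5 HPA, 33 higher at 6 HPA and 10 higher in intact animals, and wound response genes 1 lower at 0.5 HPA, 2 higher and 2 lower at 6 HPA, 1 lower at 24 HPA and 1 lower at 48 HPA. The cause of these shifts was not tested.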
